A study of Mus musculus with 2 samples.

Results

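The microRNA genes Mir10a, Mir10b, Mir196a-1, Mir196a-2, Mir196b and Mir615 lie inside the Hox clusters of the mouse. They were chosen by matching the gene identifiers of the deposited tables to these 6 symbols in the GENCODE M21 annotation, and they are 6 of 2202 microRNA genes in the tables. MicroRNA sequencing was done on total RNA of the gastrocnemius, a large calf muscle of the hindlimb, from female mice of the hybrid strain B6CASTF1/J at an age of 25 days. Replicates 1 and 2, with 1 library each, formed a single group with no treatment and no other tissue. The labels number the females separately but give the same donor identifier to both libraries. The SDs below are therefore a spread between 2 libraries, which may be technical.

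Hox genes encode transcription factors that give cells their position along the body axis and along the limb. In each cluster the genes are transcribed in the same direction, and their order along the chromosome follows the order of the body regions in which they act. The miR-10 genes lie beside Hox4 genes and the miR-196 genes beside Hox9 genes, an arrangement kept across vertebrates, and Mir615 lies within Hoxc5. In mouse embryos miR-196 directs cleavage of the Hoxb8 messenger RNA. A microRNA finds its targets mainly through its seed, bases 2 to 8 of the mature strand.

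The mature sequences, taken from RefSeq on GRCm38.p6, show which members share a seed. All 6 genes matched an entry. Seeds are in capitals.
mmu-miR-10a-5p: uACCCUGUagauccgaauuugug
mmu-miR-10b-5p: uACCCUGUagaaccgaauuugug
mmu-miR-196a-5p: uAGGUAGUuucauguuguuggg
mmu-miR-196b-5p: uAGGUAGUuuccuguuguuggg
mmu-miR-615-3p: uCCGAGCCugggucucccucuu
mmu-miR-615-5p: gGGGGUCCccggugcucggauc
The miR-10 strands share their seed and differ at 1 of 23 positions, U12A from miR-10a to miR-10b, counted from 1 at the 5′ end. The miR-196 strands also share their seed and differ at 1 of 22 positions, A12C from miR-196a to miR-196b. In both families the difference thus lies at position 12, outside the seed. In the RefSeq table no mature microRNA outside the respective family had the miR-10 or the miR-196 seed, and none had either seed of miR-615. The deposited counts belong to whole hairpins, and do not separate the 5′ from the 3′ arm.

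The mature strand miR-196a-5p is encoded at 2 loci, and this limits what the counts of Mir196a-1 and Mir196a-2 can show. The hairpins are printed with the shared mature strand in capitals.
Mir196a-1: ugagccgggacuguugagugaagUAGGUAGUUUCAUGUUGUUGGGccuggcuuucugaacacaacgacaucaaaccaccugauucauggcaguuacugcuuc
Mir196a-2: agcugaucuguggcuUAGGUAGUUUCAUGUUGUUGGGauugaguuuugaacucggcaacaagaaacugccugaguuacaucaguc
The longest stretch that the hairpins share is the mature strand itself, 22 bases, and they differ from the first base on either side of it. A read that lies within the shared stretch fits both loci alike. The tables tally 68.6% of the reads of replicate 1 and 69.7% of those of replicate 2 as aligning to more than 1 place, and these reads count for no gene, so levels of Mir196a-1 and Mir196a-2 are uncertain. For the other members the longest stretch shared with any annotated microRNA hairpin was 15 bases between Mir10a and Mir10b, 14 for Mir615 and 12 for Mir196b. Each of their mature strands was found in 1 annotated hairpin.

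Positions are given on mm10. Mir10a (ENSMUSG00000065519.1) lies in the Hoxb cluster at chr11:96317165-96317274 on the forward strand, between Hoxb5 and Hoxb4, and ends 1495 bases before the Hoxb4 start codon. Mir10b (ENSMUSG00000065500.3) lies in the Hoxd cluster at chr2:74726070-74726137 on the forward strand, in introns of annotated Hoxd4 and Hoxd3 transcripts, 1141 bases before the Hoxd4 start codon. The miR-10 genes thus hold matching places in their clusters.

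The miR-196 genes hold the corresponding place before Hox9 genes. Mir196a-1 (ENSMUSG00000065546.1) lies between annotated Hoxb13 and Hoxb9 at chr11:96265164-96265265, outside both, and 6276 bases before the first Hoxb9 start codon. Mir196a-2 (ENSMUSG00000065488.2) lies at chr15:102973350-102973434 between Hoxc10 and Hoxc9, within an intron of a long annotated Hoxc5 transcript. Mir196b (ENSMUSG00000065443.1) lies on the reverse strand at chr6:52230081-52230165 and overlaps exons of non-coding Hoxa9 transcripts. Mir615 (ENSMUSG00000076010.1) lies at chr15:103014910-103015001 in an intron of Hoxc5, 41475 bases beyond Mir196a-2 in the same cluster.

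**Figure D1:**
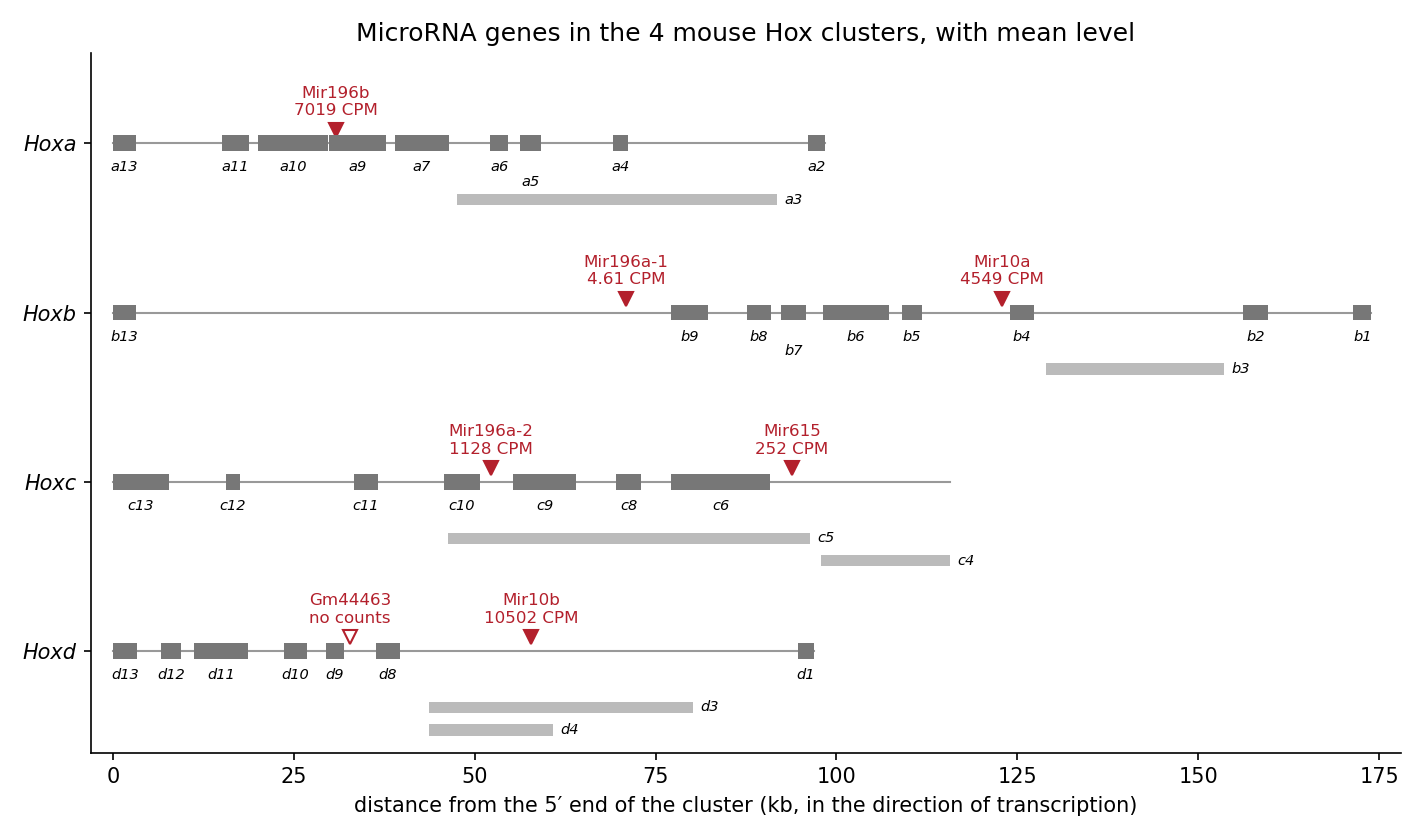
Map of the Hoxa, Hoxb, Hoxc and Hoxd clusters. The horizontal axis is the distance in kb from the 5′ end of each cluster, in the direction of transcription. Dark boxes are the Hox genes analysed here, light bars below them are those with the longest annotation, and filled triangles are the 6 microRNA genes with their mean CPM. The open triangle is Gm44463, which had no counts. Mir10a and Mir10b lie beside Hoxb4 and Hoxd4, and the miR-196 genes lie beside Hoxa9, Hoxb9 and Hoxc9.

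Levels are counts on the strand of the gene scaled to 1000000 counts over all microRNA genes of the library (CPM). Replicate 1 held 1573213 such counts and replicate 2 held 5429127. A count of 0 allows up to 3 counts, which is 1.91 CPM in replicate 1 and 0.553 CPM in replicate 2. Intervals below are exact (Clopper-Pearson) 95% intervals and cover counting error only. Mature strands here are 22 or 23 bases long, so CPM were compared between genes without scaling to length. The muscle markers were present, and all 9 listed had counts. Mir206, which is specific to skeletal muscle, led with 34864 CPM (replicate 1) and 72482 CPM (replicate 2). The listed Mir1a and Mir133a genes had from 2.03 to 378 CPM. Reads that fit more than 1 locus count for no gene, so levels of such numbered copies can be too low.

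All 6 Hox cluster microRNA genes were detected, that is, they reached 2 CPM in both libraries, against 14.7% of all 2202 microRNA genes. Together they held 2.36% of the counts of replicate 1 (2.33 to 2.38) and 2.33% of those of replicate 2 (2.32 to 2.35), which averages 2.35% ± 0.0169 (SD, n = 2). The median of their mean levels was 2838 CPM, beside 130 CPM over the 324 detected genes. At least 1000 CPM was reached by 4 of the 6, against 3.27% of all microRNA genes. No member had a count on the opposite strand in either library, and counting without regard to strand gave each of them the same counts.

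Mir10b was the most abundant member in counted reads. It had 16494 counts or 10484 CPM in replicate 1 (10326 to 10645) and 57115 counts or 10520 CPM in replicate 2 (10434 to 10606), and ranked 20 in both libraries. Its mean of 10502 CPM had an SD of 25.3. In CPM the libraries thus gave Mir10b the same level within counting error. With DESeq2 size factors in place of CPM, Mir10b had a log2 ratio of replicate 1 over replicate 2 of -0.13. Mir10a, its relative in the Hoxb cluster, had 8100 counts or 5149 CPM in replicate 1 (5037 to 5262) and 21442 counts or 3949 CPM in replicate 2 (3897 to 4003). Its mean was 4549 ± 848 CPM, and these intervals did not overlap, with replicate 1 the higher library.

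Within each library Mir10b exceeded Mir10a. The ratio of Mir10b over Mir10a was 2.04 in replicate 1 (1.98 to 2.09) and 2.66 in replicate 2 (2.62 to 2.71). Mir10b made up 67.1% of the counts of both genes in replicate 1 and 72.7% in replicate 2. Its share averaged 69.9% ± 3.99 (SD, n = 2). Most counted miR-10 reads thus belonged to the Hoxd cluster in either library. With 2 libraries a permutation test of such a ratio cannot reach p = 0.05, and none was run.

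Mir196b led the miR-196 genes in counted reads. It had 10328 counts or 6565 CPM in replicate 1 (6439 to 6692) and 40576 counts or 7474 CPM in replicate 2 (7401 to 7547), a mean of 7019 ± 643 CPM. Mir196b thus differed between the libraries in the opposite direction to Mir10a, with replicate 2 the higher. Mir196a-2, from the Hoxc cluster, had 1769 counts or 1124 CPM in replicate 1 (1073 to 1178) and 6139 counts or 1131 CPM in replicate 2 (1103 to 1159), with a mean of 1128 ± 4.46 CPM. Mir196a-1, from the Hoxb cluster, had 9 counts or 5.72 CPM in replicate 1 (2.62 to 10.9) and 19 counts or 3.50 CPM in replicate 2 (2.11 to 5.47). Both values of Mir196a-1 lay above what a count of 0 allows, although the intervals overlapped.

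Of the counts on the 3 miR-196 genes, Mir196b held 85.3% in replicate 1 and 86.8% in replicate 2, and Mir196a-2 held 14.6% and 13.1%. Mir196a-1 held 0.0743% (0.034 to 0.141) in replicate 1 and 0.0407% (0.0245 to 0.0635) in replicate 2. Between the loci with the same mature strand, Mir196a-2 exceeded Mir196a-1 by a ratio of 197 in replicate 1 (103 to 431) and 323 in replicate 2 (207 to 537). These shares and the ratio between the loci rest on counted reads. Reads within the shared mature strand could not be given to either locus, so that ratio is uncertain beyond its interval. How many reads of miR-196a-5p went uncounted is not recorded, so the true share of miR-196a can be larger than the share given.

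Mir615 was a minor member. It had 387 counts or 246 CPM in replicate 1 (222 to 272) and 1400 counts or 258 CPM in replicate 2 (245 to 272), with a mean of 252 ± 8.4 CPM. Mir615 and Mir196a-2 overlap the same annotated Hoxc5 transcript, and Mir196a-2 exceeded Mir615 by a ratio of 4.57 in replicate 1 (4.09 to 5.12) and 4.38 in replicate 2 (4.14 to 4.65). That ratio of counted reads did not differ between the libraries beyond counting error. Uncounted reads of miR-196a-5p could raise it.

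**Figure D2:**
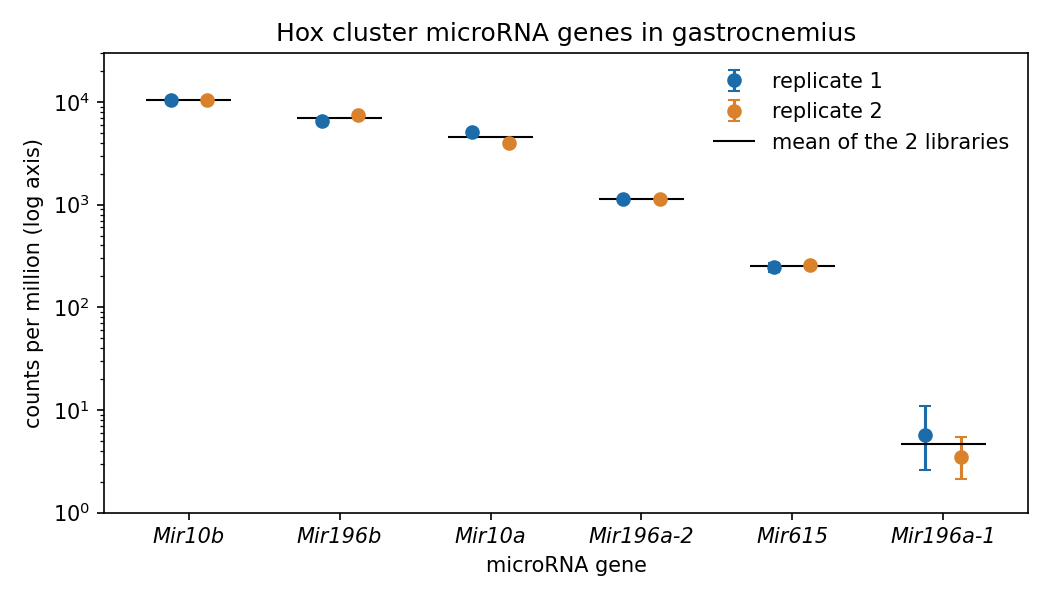
Level of each Hox cluster microRNA gene in CPM (log axis), for replicate 1 and replicate 2. Bars are exact 95% intervals for counting error, and black lines are means of the 2 libraries. The genes keep the same order in both libraries, from Mir10b at 10502 CPM to Mir196a-1 at 4.61 CPM.

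The order of counted levels was Mir10b, Mir196b, Mir10a, Mir196a-2, Mir615 and Mir196a-1 in both libraries. The places of Mir196a-2 and Mir196a-1 in it are uncertain because reads of their shared strand went uncounted. The places of the other members relative to these genes are uncertain for the same reason. The mean counted levels of neighbours in this order differed by more than their SDs over the 2 libraries, a spread that may be technical. Mir10b exceeded Mir196b by a ratio of 1.60 in replicate 1 (1.56 to 1.64) and 1.41 in replicate 2 (1.39 to 1.43). For Mir196b over Mir10a the ratio was 1.28 in replicate 1 (1.24 to 1.31) and 1.89 in replicate 2 (1.86 to 1.92). Summed by family, the miR-10 genes had 15051 ± 823 CPM and the miR-196 genes 8152 ± 646 CPM. The miR-10 sum exceeded the miR-196 sum by a ratio of 2.03 in replicate 1 and 1.68 in replicate 2, with the reservation on miR-196a reads given above.

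**Figure D3:**
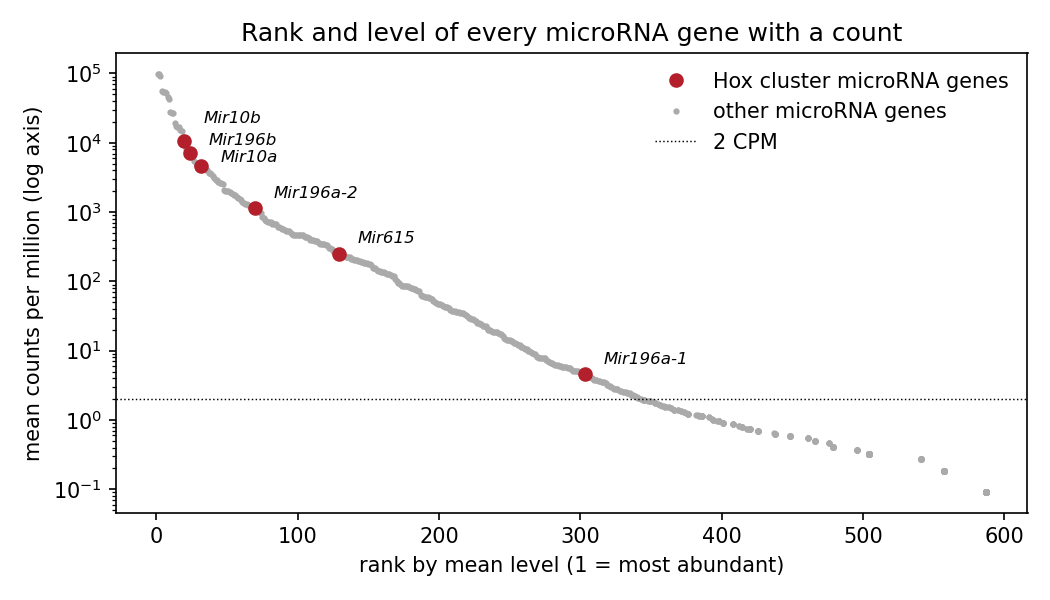
Mean CPM (log axis) of every microRNA gene with a count, against its rank. Red points are the Hox cluster genes, grey points the other genes, and the dotted line marks 2 CPM. Mir10b, Mir196b and Mir10a lie at ranks 20, 24 and 32, Mir196a-2 at 70, Mir615 at 129 and Mir196a-1 at 303.

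By cluster, the counts of the 6 genes were unevenly divided. The Hoxd cluster, with Mir10b alone, held 44.8% ± 0.43 (SD, n = 2) of them and the Hoxa cluster, with Mir196b alone, 29.9% ± 2.96. The Hoxb cluster held 19.4% ± 3.48, and the Hoxc cluster, with Mir196a-2 and Mir615, held 5.88% ± 0.0971. These are shares of counted reads. Uncounted reads of miR-196a-5p could raise the Hoxb or the Hoxc share and lower the Hoxa and Hoxd shares, by an amount not recorded. The annotation places another microRNA gene, Gm44463, on the reverse strand of the Hoxd cluster between Hoxd9 and Hoxd8, and it had 0 counts on either strand in both libraries.

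Genes at like places in their clusters had unlike counted levels. The Hoxb cluster held both a miR-10 gene and a miR-196 gene, 51899 bases apart, and Mir10a exceeded Mir196a-1 by a ratio of 900 in replicate 1 (474 to 1969) and 1129 in replicate 2 (722 to 1875). Mir196b, which holds the same place in the Hoxa cluster as Mir196a-1 in the Hoxb cluster, had the second highest counted level of the members. Among the genes beside Hox9 genes the means thus ran from 4.61 CPM for Mir196a-1 to 7019 CPM for Mir196b. Those beside Hox4 genes were 4549 CPM for Mir10a and 10502 CPM for Mir10b. The level of Mir196a-1 in this comparison is uncertain because its mature strand is shared. Messenger RNA of the Hox genes was not measured in these libraries.

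Differences between the libraries were small for most members. The log2 ratio of replicate 1 over replicate 2 was -0.0049 for Mir10b (-0.03 to 0.02), -0.0078 for Mir196a-2 (-0.09 to 0.07) and -0.067 for Mir615 (-0.23 to 0.10). Each of these intervals includes 0 in CPM of the gene-strand counts, and other scalings can shift them. With DESeq2 size factors the ratios were -0.13 for Mir10b, -0.13 for Mir196a-2 and -0.19 for Mir615. Mir10a was higher in replicate 1, with a log2 ratio of 0.38 (0.35 to 0.42), and Mir196b lower there, with -0.19 (-0.22 to -0.16). Both are smaller in size than 0.50, the SD of a gene's log2 ratio. That SD follows from the common biological coefficient of variation of 24.6% that edgeR estimated from these libraries. The median absolute log2 ratio over all genes with at least 10 counts was 0.29, which Mir10a exceeded and Mir196b did not.

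A difference of at least 1.5-fold was seen in 1 of 6 members, Mir196a-1, against 28.3% of the 364 genes with at least 10 counts. Its log2 ratio of 0.75 rested on 9 and 19 counts, and its interval of -0.62 to 1.92 includes 0. Over the 364 genes, 80 (22.0%) were at least 1.5-fold higher in replicate 1 and 23 (6.32%) in replicate 2, or 72 and 37 with DESeq2 size factors. Of the members, 1 was so in replicate 1 and 0 in replicate 2. The median log2 ratio was -0.0063 over the members and 0.15 over the 364 genes. With DESeq2 size factors, which lower all ratios alike and bring the median of the 364 genes to 0.02, Mir10a had 0.26, Mir10b -0.13 and Mir196b -0.31. Mir10a thus stayed higher in replicate 1 and Mir196b lower under either scaling.

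**Figure D4:**
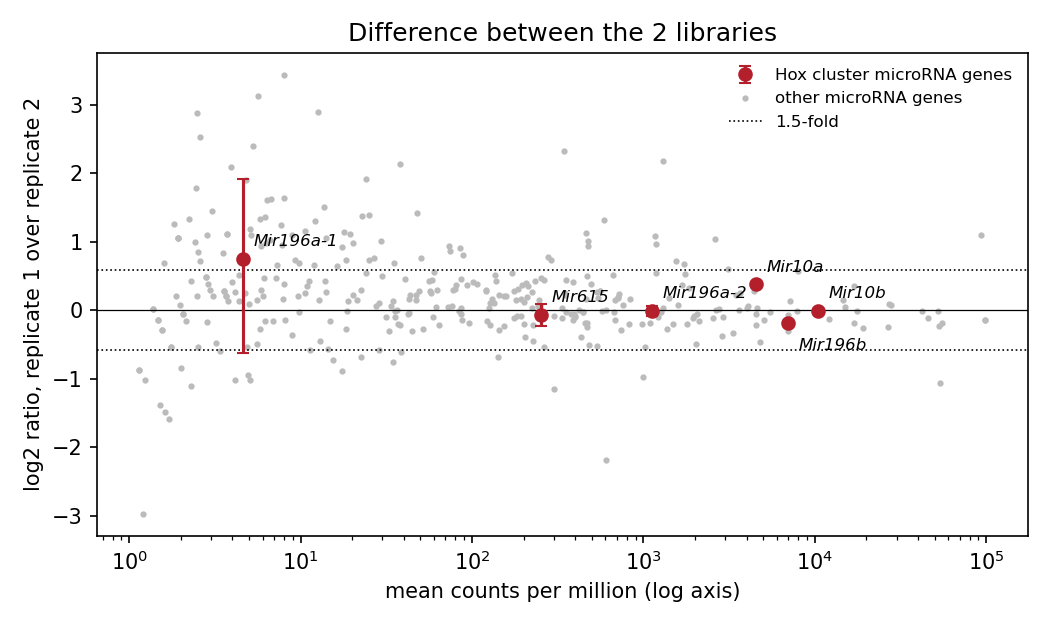
Log2 ratio of replicate 1 over replicate 2 against mean CPM (log axis). Red points with exact 95% intervals are the Hox cluster genes, grey points the other microRNA genes with at least 10 counts, and dotted lines mark 1.5-fold. Mir10b, Mir196a-2 and Mir615 lie near 0, Mir10a lies at 0.38 and Mir196a-1 has the widest interval.

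Markers of cell types moved between the libraries beside Mir10a. In the smooth muscle and fibroblast list 3 of 4 tested genes were higher in replicate 1, and the summed levels were 132824 CPM there and 63364 CPM in replicate 2. Mir143 made up most of both sums, with 127590 and 59272 CPM. Mir214 was higher in replicate 2, with 1674 CPM in replicate 1 against 2355 CPM. All 8 tested epithelial genes were higher in replicate 1, with sums of 518 and 255 CPM. The same held for both erythroid genes, at 2703 and 587 CPM, and for Mir338, the only nerve gene tested. Mir9-2 and the 3 Mir124a genes had no count. Reads that fit several loci count for no gene, so for such numbered copies a missing count does not show absence. Of the white blood cell genes 3 of 4 were higher in replicate 1, with sums of 2701 and 2002 CPM. In the muscle list 6 of 9 genes were higher in replicate 2, with sums of 36362 CPM in replicate 1 against 74995 CPM. Mir206 made up most of both sums. The endothelial gene Mir126a, at 93328 and 103367 CPM, was also higher in replicate 2. These directions are in CPM, in which the median log2 ratio over the 364 genes with at least 10 counts was 0.15. With DESeq2 size factors that median was 0.02, and the directions of the markers were not recounted. The part of these cell types in the values of Mir10a and Mir196b was not tested, and in a bulk tissue fewer cells of a type and less RNA per cell cannot be told apart.

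Relatives by sequence outside the Hox clusters gave levels on both sides of those of the members. Their 5′ strands show how close the sequences are, again with seeds in capitals.
mmu-miR-100-5p: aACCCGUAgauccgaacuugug
mmu-miR-99a-5p: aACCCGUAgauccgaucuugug
mmu-miR-125a-5p: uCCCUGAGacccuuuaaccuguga
mmu-let-7g-5p: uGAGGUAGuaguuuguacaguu
None of these seeds equals that of a member, although that of let-7 holds the letters AGGUAG, which open the miR-196 seed. Mir10b, at 10502 ± 25.3 CPM, lay below Mir99a at 27177 ± 1233 CPM and above Mir100 at 7005 ± 1034 CPM. Mir99b had 2111 ± 154 CPM and Mir125a 3488 ± 392 CPM. Mir125b-1, at 251 ± 7.52 CPM, and Mir125b-2, at 158 ± 16.1 CPM, share their mature strand and are uncertain like the Mir196a genes. Mir196b, at 7019 ± 643 CPM, lay below Mirlet7g at 52398 ± 395 CPM and Mirlet7i at 42234 ± 221 CPM, and above Mirlet7e at 2650 ± 0.953 CPM.

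Genes with the most similar levels were sought among the 324 detected genes by the distance of log2(CPM + 1) over the 2 libraries. Mir130a was nearest to Mir10a, at 4825 CPM in replicate 1 and 3970 CPM in replicate 2, a distance of 0.09, followed by Mirlet7f-2 and Mir434. For Mir10b it was Mir335, with 11614 and 12731 CPM at a distance of 0.31, followed by Mir139 and Mir30e. For Mir196b it was Mir100, with 6274 and 7737 CPM at a distance of 0.08, followed by Mir27b and Mir30d. Mir154, Mir433 and Mir351 were nearest to Mir196a-2, at distances of 0.15, 0.16 and 0.23. Mir125b-1, Mir181a-1 and Mir674 were nearest to Mir615, and Mir129-2, Mir218-2 and Mir26a-1 to Mir196a-1. These distances rest on 2 libraries and describe like counted levels only. Some of the genes named, such as Mirlet7f-2 and Mir125b-1, share their mature strand with another locus. Their counted levels can be too low.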

How the data were processed

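The authors deposited a table of raw counts per microRNA gene for each library, made on the mm10 assembly with the GENCODE M21 annotation, according to their deposited readmes. For the aligner and the counter, no name or setting is given in the sources used here. From the values, the columns were taken as counts on either strand, on the gene's strand and on the opposite strand. The first rows tally reads given to no gene. These rows stayed out of the library totals. CPM were computed from the gene-strand counts. Genes with at least 10 counts over both libraries entered ratios, with an offset of 0.5 counts. The members and lists were chosen with earlier results of these data known. A Hox gene is not reported here, neither as a landmark nor in counts of Hox genes. Named genes were the members, other microRNA genes in Hox clusters, sequence relatives and the 3 genes nearest in level. The libraries form 1 group, so conditions could not be compared, and no p-value was computed. Intervals and the coefficient of variation were tested on simulated data. Tools were Python 3.11.15, pandas 2.3.3, numpy 2.4.6, scipy 1.17.1, matplotlib 3.10.9, R 4.3.3, edgeR 4.0.16 and DESeq2 1.42.0. Both scalings were estimated on genes with at least 10 counts. Alternatives were the column without regard to strand, all aligned reads as denominator, other CPM minimums, count minimums and offsets, TMM and DESeq2 scaling, and each replicate left out. Molecular identifiers are not mentioned in the sources used here, so intervals cover counting error only.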

Additional observations from a re-analysis of the deposited data

How the results depend on the processing

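All 6 members were detected at a CPM minimum of 1, with no minimum, in the column without regard to strand, and without either replicate. At a minimum of 10 CPM 5 were detected, and Mir196a-1 was not. The summed share of the members was 3.07% in the column without regard to strand, whose totals were 1216683 and 4110500 counts, and 0.553% of all aligned reads, against 2.35%. Those totals lay below the 1573213 and 5429127 gene-strand counts, while the members kept the same counts, so their share was larger. Why the totals were lower was not tested. The summed share was 2.33% and 2.36% when a replicate was left out. The share of Mir10b in the miR-10 counts was 72.7% and 67.1%, and that of Mir196a-2 in the miR-196 counts 13.1% and 14.6%, when replicate 1 or replicate 2 was left out. The number of genes past 1.5-fold was 45 with a minimum of 100 counts and 261 with no filter beyond 1 count, against 103. The ratios of Mir10a, Mir10b, Mir196a-2 and Mir196b moved outside their counting intervals under TMM and DESeq2 scaling, and no sign changed. Depth limits Mir196a-1 most, with 9 and 19 counts. No paired analysis was possible because the libraries form a single group.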

Other observations

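Seed matches to the members were counted in the annotated 3′ untranslated regions of 38 Hox genes, taking the longest region of each gene and its transcribed strand. The letters ACTACCT, which pair with the miR-196 seed, were found in 8 of the 38 Hox genes (21.1%), against 6.81% of 21103 protein-coding genes. They were present in Hoxa4, Hoxa5, Hoxa7, Hoxa9, Hoxb1, Hoxb6, Hoxb7 and Hoxc8. The letters ACAGGGT, which pair with the miR-10 seed, were found in Hoxa3, Hoxb3 and Hoxd1, or 7.89% of the Hox genes, against 12.9% of all. For the miR-615-3p seed, the pairing letters GGCTCGG were found in Hoxb4 alone, or 2.63% of the Hox genes, against 2.83% of all. The median region was 963 bases long in the Hox genes and 1086 bases over all genes. These matches are descriptions of letters, with no measurement of binding.

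The best stretch for miR-196a-5p in any of these Hox regions lay in Hoxb8, at chr11:96284888-96284909 on the forward strand of mm10. It is shown because it pairs along the whole mature strand, with the bases opposite the seed in capitals.
Hoxb8 site: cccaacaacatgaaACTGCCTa
Of 22 bases, 21 form Watson-Crick pairs with miR-196a-5p and 1 a G-U pair, and for miR-196b-5p the numbers are 20 and 1, with 1 base unpaired. The next best Hox gene for miR-196a-5p was Hoxd8, with 15 Watson-Crick and 3 G-U pairs. The seed letters ACTACCT are not in the Hoxb8 region. In this muscle Mir196b, whose mature strand leaves 1 base of the site unpaired, had 7019 CPM, and the counted level of Mir196a-2, whose mature strand pairs throughout, was 1128 CPM.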
